A study of Homo sapiens with 15 samples.

Results

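PD98059, an inhibitor of the MAPK kinase MEK, was compared with agents that block the epidermal growth factor receptor (EGFR) further upstream, in malignant human breast cells. The comparison takes 3 of the 15 samples of the series, chosen by the agent named on each: the T4 sample reverted with PD98059, the T4 sample reverted with tyrphostin AG 1478 and the T4 sample reverted with mAb225. Tyrphostin AG 1478 is a small molecule that inhibits the kinase of EGFR inside the cell, and mAb225 is an antibody that binds the receptor from outside. The cells belong to the HMT3522 series grown in 3 dimensions in laminin-rich extracellular matrix (lrECM), where S1 (3 samples) is labelled normal and T4 (3 samples) malignant. T4 grown with any of 9 agents is called reverted, and each agent has 1 sample. The labels name no agent for S1 and T4, and although a vehicle control is mentioned for the series, they do not say which samples received it. Each line stands for a single cell line series, and the agents are set side by side with no dose or time known for any of them.

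RNA was measured on 2 types of Affymetrix U133A-type array, deposited as log2 values in 2 tables, with a table for each array type. The second table holds PD98059, tyrphostin AG 1478, mAb225, TNF protease inhibitor-2, dominant-negative Rap1, the β1-integrin antibody AIIB2 and S1 sample 3. The first holds all 3 T4 samples, S1 samples 1 and 2, and T4 reverted with GM6001, with the inhibitor labelled MMPs and ADAMs, and with LY294002. The 3 agents therefore share a table and an array type with each other and not with T4. The median log2 value per sample was 7.33 to 7.40, and precision is limited by how few arrays there are. T4 sample 3 stood apart from its group, at least 1 log2 unit (2-fold) from T4 samples 1 and 2 in 356 and 426 of the 9111 genes compared, where those samples differed from each other in 6. With 1 sample for each agent no difference between agents has a replicate check, and no test was made.

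The label of breast epithelium was checked against its markers. In all 3 agents' samples 8 of 9 measured epithelial markers lay above the sample's median, among them keratins KRT5 and KRT14 at 13.80 to 14.42, while KRT19 lay at 6.52 to 6.67. No endothelial marker of 4 and 1 leukocyte marker of 4, CD14 at 7.61 to 7.64, lay above the median in all of them. Among 6 fibroblast markers COL1A1 did, at 10.54 to 10.67 against 8.77 to 9.04 in T4, while COL1A2, COL3A1 and PDGFRB lay between 7.02 and 7.34. The part of other cells in that level was not tested.

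EGFR is a receptor tyrosine kinase that, when a ligand such as TGFA, HBEGF or EREG binds it, recruits adaptors that activate RAS. RAS starts a chain of kinases in which RAF activates MEK and MEK activates ERK, and ERK then drives immediate early genes such as EGR1 and FOSL1 and its own inhibitors, the DUSP phosphatases and the Sprouty proteins. The receptor also feeds PI3K and other branches that a MEK inhibitor does not reach directly. In T4 cells in lrECM, blocking EGFR or MEK is known to restore acinus-like growth. PD98059 is a flavone, and flavones as a class include ligands of the aryl hydrocarbon receptor AHR, a transcription factor that responds to planar aromatic compounds and drives the CYP1 family of cytochrome P450 enzymes.

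Promoter letters of a gene from each of these arms are shown because the results turn on their readouts: CYP1A1, the classic AHR target, and EGR1, the classic immediate early gene. Both stretches are the 250 bases before the annotated start, 5′ to 3′ on the gene's strand, from RefSeq on GRCh38.p14. CYP1A1 lies on the minus strand at chr15:74725529-74725778, and the capitals mark its only match to GCGTG, the core letters of the AHR site, searched on both strands, which begins 57 bases before the start.
CYP1A1: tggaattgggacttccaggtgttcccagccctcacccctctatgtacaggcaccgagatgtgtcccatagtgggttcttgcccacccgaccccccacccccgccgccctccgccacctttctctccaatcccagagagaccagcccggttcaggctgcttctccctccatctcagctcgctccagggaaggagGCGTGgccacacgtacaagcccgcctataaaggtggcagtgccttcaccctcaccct
EGR1 lies on the plus strand at chr5:138465229-138465478, and the capitals mark 2 matches to the CArG box, the site of serum response factor, beginning 105 and 83 bases before the start.
EGR1: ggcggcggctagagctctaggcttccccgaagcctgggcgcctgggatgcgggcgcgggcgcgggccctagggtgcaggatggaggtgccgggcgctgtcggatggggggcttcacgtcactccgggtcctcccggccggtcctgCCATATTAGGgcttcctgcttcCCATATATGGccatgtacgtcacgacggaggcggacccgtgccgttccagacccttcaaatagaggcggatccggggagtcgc
Neither motif overlaps the other in these stretches. The 5 letters of the AHR core are common: 31.9% of the 27305 RefSeq promoters of this length hold them, as do 45.2% of the 7501 compared genes with a promoter entry and 3 of the 7 measured AHR-related genes with one. The CArG box is rarer, in 1.14% of all promoters, and the CYP1A1 stretch holds 1 match to it too. These matches describe letters and not bound sites.

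The MEK inhibitor sample and the EGFR blocker samples were close to one another, and the widest departures of PD98059 were in xenobiotic metabolism genes. Of 9111 genes, 2 lay at least 1 log2 unit above both EGFR blockers in PD98059 (0.022%) and 0 lay at least 1 below both (0.0%). Both were CYP1 enzymes. CYP1A1, which oxidises polycyclic aromatic compounds, stood at 8.75 with PD98059, 7.45 with tyrphostin AG 1478 and 7.17 with mAb225, so that both blocker values were close to their samples' medians and no fold is given. CYP1B1, a related enzyme that also hydroxylates oestrogen, stood at 9.28, 8.09 and 7.71 in the same order, 2.27-fold above the nearer blocker.

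CYP1A1 was high in PD98059 alone. In the other 14 samples it lay between 6.86 and 7.50, in the lower part of the arrays' range (lower quartiles of 6.87 to 6.91, medians of 7.33 to 7.40), and the T4 samples were at 6.89, 6.86 and 7.17. CYP1B1 was not: it reached 9.21 in S1 sample 3, 8.88 with TNF protease inhibitor-2 and 8.73 with dominant-negative Rap1, and T4 was at 7.55, 7.81 and 8.44. A single probe set measures CYP1A1. Of the 3 further probe sets of CYP1B1, 2 also lay at least 1 above both blockers, by 1.19 and 1.18, and the last was dim in all 3 samples at 6.77 to 6.86. With all probe sets of a gene averaged, CYP1B1 stood 0.91 above the nearer blocker. CYP1B1 passed the 1-unit distance narrowly, at 1.18, and RGS2 fell just short of it, at a distance of -0.88 (PD98059 lower).

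**Figure D1:**
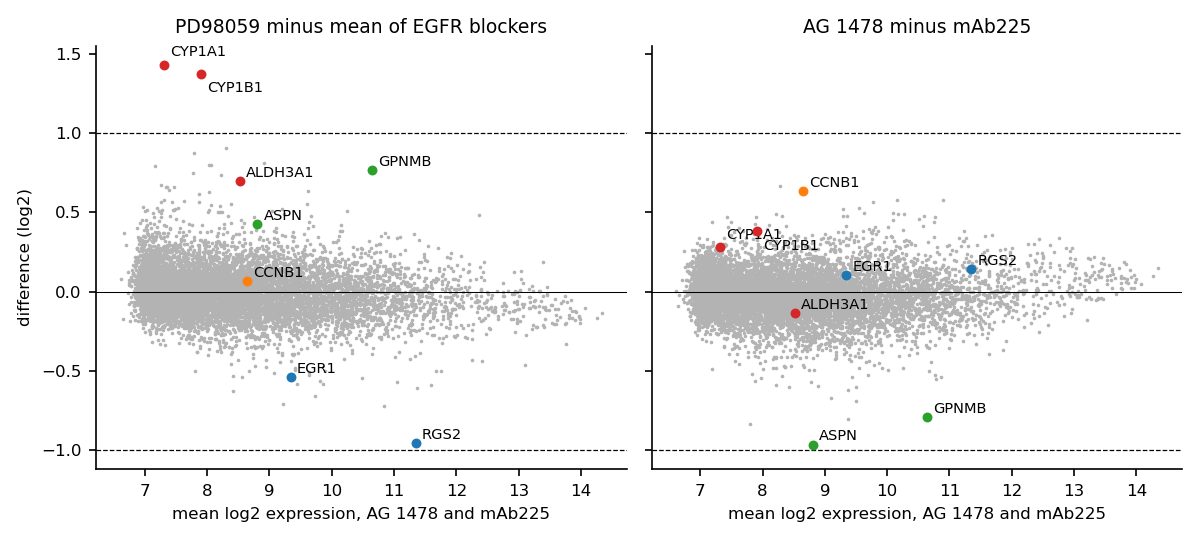
Each grey point is 1 of 9111 genes, with the mean log2 value of tyrphostin AG 1478 and mAb225 on the x axis and a log2 difference on the y axis: PD98059 minus that mean on the left, tyrphostin AG 1478 minus mAb225 on the right. Dashed lines mark 1 log2 unit, which CYP1A1 (1.43) and CYP1B1 (1.38) pass on the left and no gene passes on the right.

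The other genes known to answer to AHR were less far apart. On a list of AHR-related genes, 9 were measured, and these include CYP1A1 and CYP1B1, already picked out above by their distance. PD98059 was above both blockers in 5, CYP1A1 and CYP1B1 among them, and below both in 1. The shares of all genes by any distance were 33.4% and 36.2%. With CYP1A1 and CYP1B1 counted, the median difference from the blockers' mean was 0.35 against 0.00 over all genes. Over the settings tried it was 0.12 to 0.43, lowest with genes of below-median mean left out, and 0.24 with all probe sets averaged. ALDH3A1, an aldehyde dehydrogenase, stood at 9.22 with PD98059 against 8.45 and 8.59. CYP1A2 stood at 7.68 against 7.25 and 7.22, though its second probe set did not separate the samples, at 6.95 against 6.98 and 6.85. TIPARP, an AHR-induced inhibitor of AHR, stood at 11.14 against 10.86 and 10.71. NQO1, a quinone reductase, lay between the blockers at 10.05 against 10.42 and 9.93, AHR itself between them at 9.14 against 8.84 and 9.19, and its partner ARNT below both by a distance of -0.03, at 8.07. The median level of the list was 9.14 with PD98059, 8.35 with tyrphostin AG 1478, 8.29 with mAb225 and 8.26 to 8.76 with the other agents of the table, so PD98059 was the highest. The value of 9.14 is the level of AHR itself, which lay between the blockers. The gene in the middle thus changed between samples, and the gap between these medians does not measure a shift of the genes. Which property of PD98059 these levels go with was not tested.

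**Figure D2:**
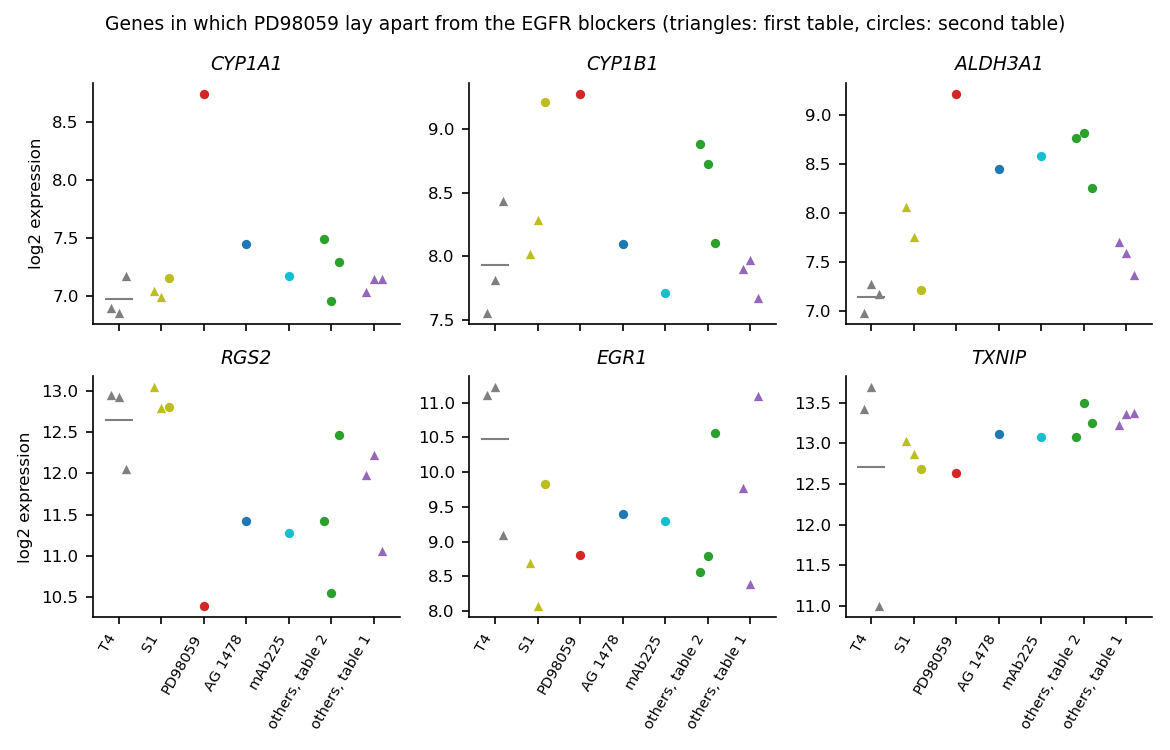
Log2 expression (y axis) of 6 genes in all 15 samples, grouped by line or agent on the x axis, each point 1 sample, the bar the mean of T4. CYP1A1 is high in the PD98059 sample alone, while for CYP1B1 S1 sample 3 at 9.21 lies close to PD98059 at 9.28 and for EGR1 T4 sample 3 at 9.10 lies far below T4 samples 1 and 2.

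At a distance of 0.5 log2 unit, PD98059 lay above both blockers in 30 genes (0.329%) and below both in 5 (0.0549%), which makes 35 in either direction (0.384%). In 24 of the 30 PD98059 was also above every other sample of the table. The 30 were picked for being high with PD98059, and no share over all genes was taken for this count. After the CYP1 genes the next by distance from the nearer blocker were CALML3, a calmodulin-like protein of epithelium, at 8.67 against 7.74 and 7.85, CACNG4, a calcium channel subunit, at 8.86 against 8.08 and 8.04, SLC17A4, an anion transporter, at 7.95 against 7.18 and 7.14, and SFTPD, surfactant protein D, at 9.72 against 8.85 and 8.96. Most of these genes were dim: 20 of the 30 had a blocker mean under 8. Further probe sets gave little backing, since 18 of the 30 genes had 37 others, of which 19 fell on the same side, 2 by at least 0.5, and 11 on the opposite side. The second probe set of CALML3 differed by -0.02, and the 5 others of the erythropoietin receptor gene EPOR, 0.70 above both on the one used, lay between -0.09 and 0.09.

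The 5 genes lower with PD98059 were brighter, with PD98059 at 8.51 to 10.76, and 2 of them had 5 further probe sets, of which 4 fell on the same side. RGS2, which switches off signalling by Gq-coupled receptors, stood at 10.39 with PD98059 against 11.42 and 11.28, with T4 at 12.95, 12.93 and 12.05, so all 3 agents lay below T4 and PD98059 lowest. In the same table dominant-negative Rap1 was close to it, at 10.55. TM4SF1, a tetraspanin-like surface protein, stood at 10.12 against 10.77 and 10.92, and 2 of its 3 further probe sets gave -0.51 and -0.60 while the dim last gave 0.12. MIOS, a subunit of the GATOR2 complex in amino acid sensing, stood at 10.47 against 11.01 and 11.09, with -0.47 and -0.25 on its other probe sets. ABLIM3, an actin-binding protein, stood at 8.51 against 9.14 and 9.30, and ADIRF, an adipogenesis factor, at 10.76 against 11.46 and 11.28.

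Other genes lay short of that distance. TXNIP, a thioredoxin inhibitor that limits glucose uptake, stood at 12.64 with PD98059 against 13.12 and 13.07, and its other probe sets gave larger distances, -0.55 and -0.78. EGR1, whose promoter is shown above, stood at 8.80 against 9.40 and 9.29 on the brighter probe set, a distance of -0.49 from the nearer blocker, and at 7.71 against 7.96 and 7.98 on the other. T4 spread over 11.10, 11.22 and 9.10 for EGR1, so both EGFR blockers lay inside the T4 range and PD98059 below its lowest sample, T4 sample 3. TIMP1, a metalloproteinase inhibitor, stood at 11.00 against 11.69 and 11.49.

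The direction of small differences moved with brightness. Where the blockers' mean was under 8, PD98059 was above both in 38.7% of 3946 genes and below both in 31.8%; where it was 12 or more, PD98059 was above both in 12.1% of 207 genes and below both in 66.2%, with a median difference of -0.10. Small distances of bright genes, such as TXNIP and the glycolytic enzymes, stand beside that shift, and its part in them was not tested.

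How close the 3 agents were shows against the other samples of their table. PD98059 and tyrphostin AG 1478 were at least 1 log2 unit apart in 5 genes, PD98059 and mAb225 in 2, and tyrphostin AG 1478 and mAb225 in 0. The same 3 samples differed from TNF protease inhibitor-2 in 53, 39 and 54 genes, from AIIB2 in 164, 144 and 173, from dominant-negative Rap1 in 394, 403 and 352 and from S1 sample 3 in 628, 570 and 611. For scale within a group, S1 samples 1 and 2 differed in 16 genes and T4 samples 1 and 2 in 6. With another sample of the table in the place of PD98059, 30 genes lay at least 1 outside both EGFR blockers for TNF protease inhibitor-2, 126 for AIIB2, 297 for dominant-negative Rap1 and 510 for S1 sample 3. Among the 3 agents PD98059 was the odd one out most often at 0.5 log2 unit, in 35 genes against 7 for tyrphostin AG 1478 and 6 for mAb225.

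**Figure D3:**
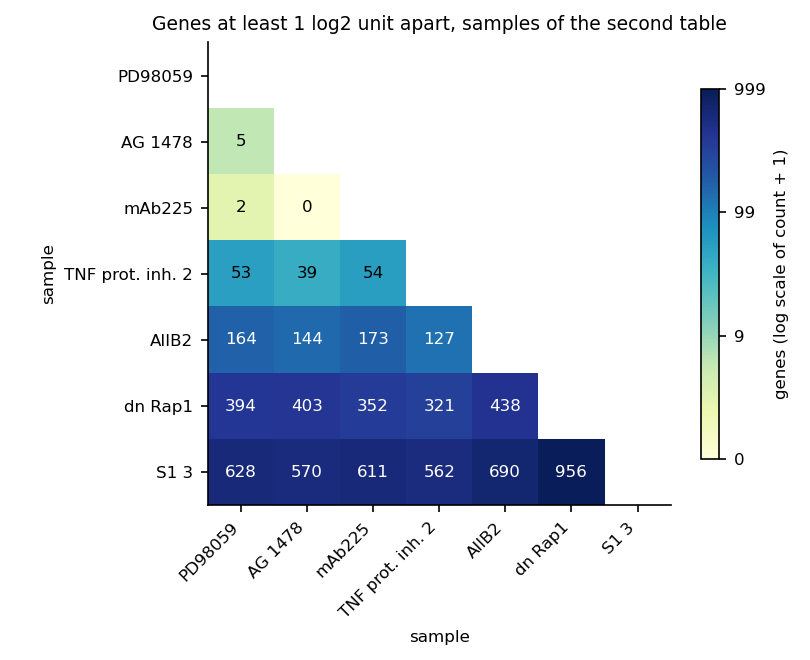
Number of genes at least 1 log2 unit apart for each pair of the 7 samples of the second table, with samples on both axes and darker cells for higher counts on a log scale. The PD98059, tyrphostin AG 1478 and mAb225 pairs hold 0 to 5 genes and every other pair holds 39 to 956.

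The genes of the pathway itself were described from lists written with earlier results of these data known. On 19 measured early genes driven by ERK, PD98059 was above both blockers in 6 (31.6%) and below both in 7 (36.8%), against 33.4% and 36.2% of all genes, with a median difference of -0.02, near that of all genes. On 12 ERK feedback inhibitors it was above both in 1 (8.33%) and below both in 6, with a median of -0.03. DUSP6, the phosphatase that removes the activating phosphates of ERK, was at 7.53, 7.70 and 7.58 with PD98059, tyrphostin AG 1478 and mAb225. SPRY1 and DUSP10 lay below both, at distances of -0.26 and -0.16. Of 10 genes of the RAS, MEK and ERK chain, 5 lay below both (against 36.2% of all genes) and 0 above (0.0%, against 33.4%), a small list; MAP2K1, which encodes MEK1, was at 8.29, 8.31 and 8.22, MAP2K2, which encodes MEK2, at 9.69, 9.76 and 9.60, and MAPK3, which encodes ERK1, at 7.82, 7.88 and 7.98. EGFR transcripts stood at 13.12, 13.11 and 12.96 and ERBB2 at 8.40, 8.43 and 8.32. The widest distances on these lists were EGR1 and the early response gene IER3, which stood 0.35 above both at 8.67 against 8.32 and 8.21.

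Cell division genes were ordered by agent. On 25 measured genes of mitosis PD98059 was above both blockers in 20 (80.0%, against 33.4% of all genes) and below both in 0 (0.0%, against 36.2%). The median difference from the blockers' mean was 0.24, and 0.09 to 0.36 over the settings tried, lowest against tyrphostin AG 1478 alone and highest against mAb225 alone. TTK, a kinase of the spindle checkpoint, stood at 8.43 against 7.82 and 7.91, and TOP2A, the topoisomerase that untangles chromosomes, at 10.76 against 10.44 and 10.05. MKI67, the Ki-67 antigen, stood at 9.41 against 9.34 and 9.13, a difference of 0.06 from the nearer. The list median was 9.29 with PD98059, 9.03 with tyrphostin AG 1478 and 8.88 with mAb225. It was 9.47 with TNF protease inhibitor-2, 9.04 with AIIB2, inside the span of the 3 agents, and 7.50 with dominant-negative Rap1. S1 samples 1 and 2, of the same line and table, were further apart than the 3 agents, at 8.46 and 7.54. T4 stood at 9.64, 9.18 and 10.16. The 3 agents thus lay within or below the T4 range, and T4 itself spread more widely than they did. On 25 DNA replication genes PD98059 was above both in 7 and below both in 4, with a median of 0.05.

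Other lists gave smaller or opposite shifts, read here against 33.4% of all genes above both blockers and 36.2% below both. Of 19 glycolysis genes PD98059 was below both in 11 (57.9%) and above both in 4 (21.1%), with a median of -0.06; the aldolase ALDOA stood at 11.97 against 12.42 and 12.40, by -0.13 on its other probe set. Of 23 interferon response genes it was above both in 12 (52.2%) and below both in 4 (17.4%), with a median of 0.03. On 14 FOXO targets it was below both in 6 (42.9%), near that share, and above both in 2 (14.3%), with a median of -0.08; SESN1, a stress-induced regulator of growth signalling, stood at 8.16 against 8.65 and 8.68. On 13 NRF2 targets, the antioxidant genes, it was above both in 7 (53.8%) and below both in 4 (30.8%), with a median of 0.07. The 7 include the aldo-keto reductase genes AKR1B10, AKR1C1, AKR1C2 and AKR1C3, at 0.20, 0.31, 0.22 and 0.29 above the nearer blocker. The probe sets of AKR1C1 and AKR1C2 cannot be told apart with certainty.

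**Figure D4:**
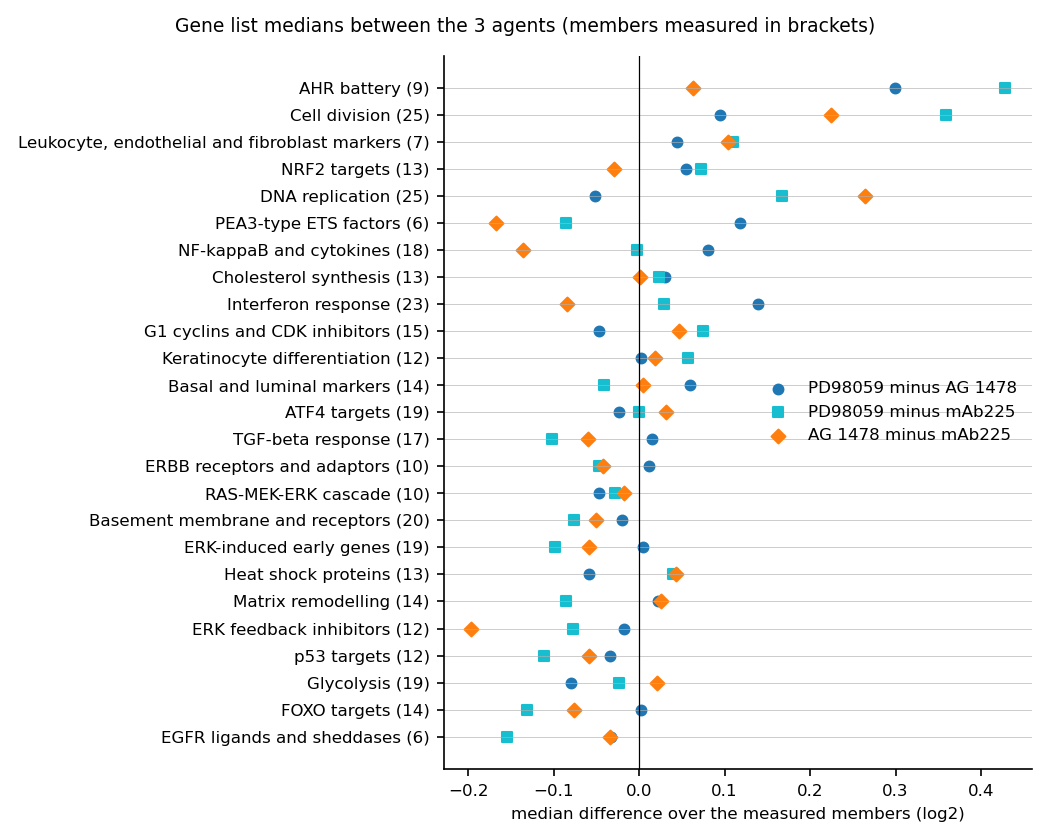
Median log2 difference (x axis) over the measured members of 25 gene lists (y axis, number measured in brackets): PD98059 minus tyrphostin AG 1478, PD98059 minus mAb225, and tyrphostin AG 1478 minus mAb225. The AHR-related list has the highest median for PD98059 minus either blocker (0.30 and 0.43). It includes CYP1A1 and CYP1B1, which were picked by their distance from these same blockers. No median without them was taken, so its rank is not a separate result. The cell division list has the next highest against mAb225 (0.36), and every median lies under 0.5 in size.

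The kinase inhibitor and the antibody against EGFR were at least 1 log2 unit apart in 0 of 9111 genes (0.0%). At 0.5 log2 unit tyrphostin AG 1478 was higher in 7 (0.0768%) and lower in 22 (0.241%), 0.318% in either direction. Of the 7, CCNB1, the mitotic cyclin, stood at 8.96 with tyrphostin AG 1478 and 8.32 with mAb225, RRM2, a subunit of ribonucleotide reductase, at 10.05 and 9.48, the spindle factor TPX2 at 10.45 and 9.87, and the clamp loader subunit RFC4 at 9.82 and 9.29. The histone gene H4C3 (8.62 and 7.95), the peroxiredoxin PRDX4 (11.19 and 10.61) and GDE1 (9.55 and 9.03) completed them. The second probe set of RRM2 gave 0.80. Tyrphostin AG 1478 was above mAb225 in 24 of 25 cell division genes (96.0%) and 23 of 25 DNA replication genes (92.0%), against 45.7% of all genes, with medians of 0.22 and 0.26 against -0.01 over all genes.

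The 22 genes lower with the kinase inhibitor were 0.241% of all genes. Of 19 early genes driven by ERK 2 were among them, as were 2 of 18 NF-kappaB targets and cytokines. The TGF-beta response list (17 measured) and the ATF4 target list (19 measured) held 1 each, so the early genes were not singled out. ASPN, a matrix proteoglycan, stood at 8.32 with tyrphostin AG 1478 and 9.29 with mAb225, with PD98059 at 9.23 and T4 at 7.04, 7.14 and 6.97. MAFF, a small MAF transcription factor, stood at 7.38 and 8.22, although its other probe set gave -0.21. JUNB, an AP-1 subunit, stood at 9.16 and 9.85, the nuclear RNA NEAT1 at 8.97 and 9.77, and GPNMB, a melanosome and lysosome glycoprotein, at 10.25 and 11.04. PD98059 lay nearer mAb225 than tyrphostin AG 1478 in 12 of the 22 and in 2 of the 7. For the 22 genes' further probe sets, 11 of 17 fell on the same side and 0 by at least 0.5. By list, mAb225 was the higher in 10 of 12 ERK feedback inhibitors (83.3%, against 53.8% of all genes), 6 of 6 PEA3-type and related ETS factors and 16 of 18 NF-kappaB targets and cytokines, with medians of -0.20, -0.17 and -0.14. The feedback inhibitors with the widest gaps were DUSP7 (8.41 and 8.88) and SPRED2 (7.67 and 8.08). No second sample of either agent shows how far 1 agent's values would spread.

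Many genes stood far from T4 with each of the 3 agents. In 188 genes each of the 3 lay at least 1 log2 unit beyond every T4 sample and also at least 1 beyond the T4 mean when both were taken relative to S1 of their own table: 74 higher (0.812%) and 114 lower (1.25%), 2.06% in all. T4 lies in the other table and on the other array type. Agent and table therefore cannot be told apart without S1, and the bridge rests on S1 sample 3. That sample lay far from S1 samples 1 and 2 in some counted genes and close in others. KRT16 stood at 7.76 in S1 sample 3 against 12.16 and 12.72, and FGFR3 at 9.13 against 9.12 and 9.09. The 3 agents thus lay 3.33 to 3.62 above the T4 mean for KRT16 on deposited values and 8.01 to 8.29 through S1. The parts of table and sample in such gaps were not tested, so the S1 condition is not shown to correct for table. With both tables quantile-normalized together the split was 125 higher and 129 lower. Without T4 sample 3 it was 79 higher and 158 lower. The 3 agents share T4 as their control, so their agreement in direction is part of the rule and is not a result. What the rule left free is their spread: the range among the 3 had a median of 0.20 in the higher genes and 0.19 in the lower, against 0.16 over all genes. It was under 0.5 in 68 of 74 (91.9%) and 112 of 114 (98.2%), against 98.3% of all genes, so these genes were no closer among the 3 agents than other genes. The widest were ASPN at 0.97 and MAFF at 0.92.

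Genes of ERK output were among the lower ones, though some were as low with other agents of the table. Of 19 early genes 6 were counted (31.6%, against 1.25% of all genes): FOSL1, IER2, IER3, PHLDA1, PHLDA2 and MAFF. PHLDA1, a pleckstrin-homology protein, stood at 7.27, 7.08 and 7.21 with PD98059, tyrphostin AG 1478 and mAb225 and at 11.13, 11.06 and 10.52 in T4. The other 4 probe sets of PHLDA1 differed from T4 by -1.33 to -3.66. FOSL1, an AP-1 subunit, stood at 7.22, 7.21 and 7.27 against 9.12, 9.33 and 9.60. With TNF protease inhibitor-2, dominant-negative Rap1 and AIIB2 FOSL1 was as low, at 7.32, 7.18 and 7.38. EGR1 and FOS were not counted, because T4 sample 3 lay at 9.10 and 8.06, among the agents' values. Of 12 feedback inhibitors 3 were counted. DUSP6 stood at 7.53 to 7.70 against 11.51, 11.69 and 10.85, and DUSP5, a nuclear ERK phosphatase, at 7.07 to 7.31 against 10.28, 10.14 and 8.92. With TNF protease inhibitor-2, dominant-negative Rap1 and AIIB2 DUSP6 stood at 7.54, 8.78 and 8.42. The median level of the feedback list with those agents was 7.54, 8.35 and 7.74, and 7.68 to 7.79 with the 3 agents. SPRY4, a Sprouty inhibitor of RAS signalling, stood at 6.78 to 7.04 against 9.43, 9.21 and 9.41, but its second probe set differed from T4 by 0.13. The ETS factor ELK3 was counted, at 7.93 to 8.25 against a T4 mean of 10.32.

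Of 6 measured EGFR ligand and sheddase genes 2 were counted as lower, HBEGF and EREG (33.3%, against 1.25% of all genes). HBEGF stood at 7.17, 7.42 and 7.38 with PD98059, tyrphostin AG 1478 and mAb225 against 9.96, 10.55 and 9.70 in T4, and its 2 other probe sets differed from T4 by -2.19 and -0.08. EREG, epiregulin, stood at 6.69, 6.61 and 6.61 against 9.13, 8.80 and 9.91. TGFA stood at 7.37, 7.43 and 7.52 against 9.02, 8.37 and 9.81, short of the distance because of T4 sample 2. NRG1, at 7.46, 7.27 and 7.34, and the sheddases ADAM10 and ADAM17 overlapped T4. The agents' values of EREG lie under the arrays' lower quartile. FGFBP1, which releases fibroblast growth factors from the matrix, had the widest gap to T4, -3.81 to the nearest sample: 7.96, 8.12 and 7.90 against 11.93, 12.44 and 13.12.

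**Figure D5:**
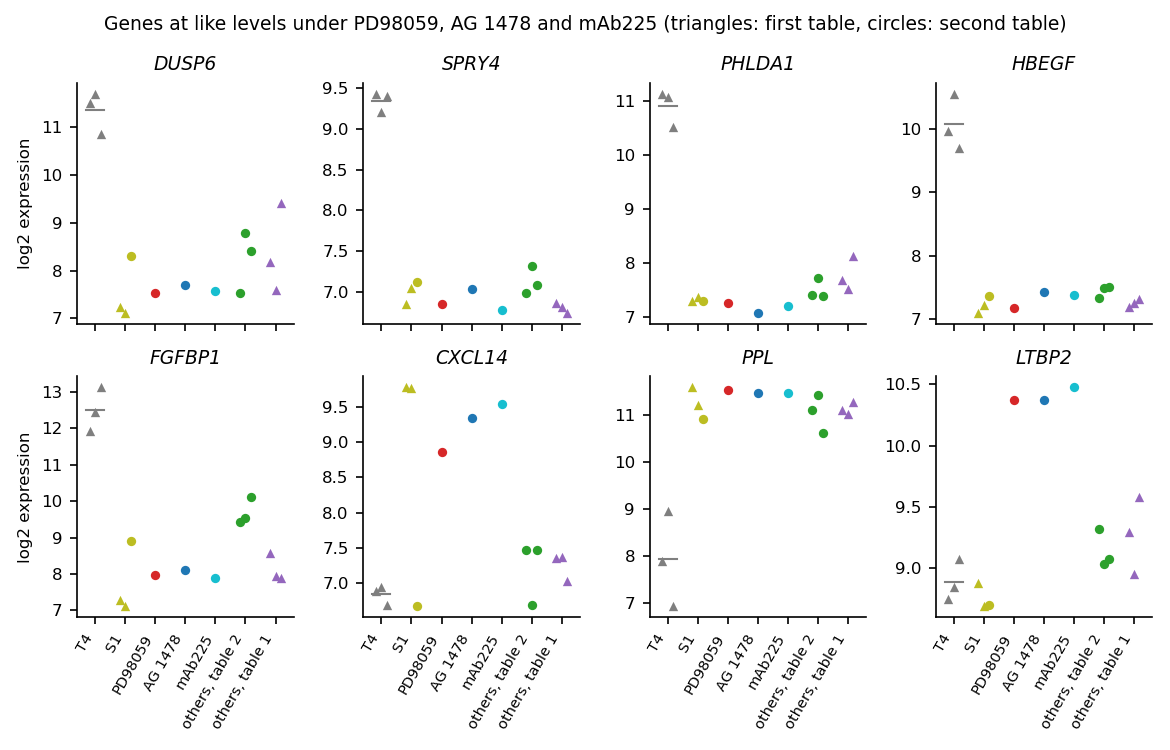
Log2 expression (y axis) of 8 genes in all 15 samples, grouped by line or agent on the x axis, each point 1 sample, the bar the mean of T4. PD98059, tyrphostin AG 1478 and mAb225 lie within 0.30 of each other in 7 of the genes and spread most in CXCL14, from 8.85 to 9.54, and the 3 T4 samples stand apart from them in each.

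Matrix genes and their receptors made up another group. The lists here are read against 1.25% of all genes counted as lower and 0.812% as higher. They too were written with earlier results of these data known. Of 20 basement membrane and receptor genes 8 were lower (40.0%) and 1 higher: the type IV collagens COL4A1 and COL4A2, the laminin chain LAMB3 and the integrins ITGA2, ITGA5, ITGA6, ITGB5 and ITGB6 were lower and the laminin chain LAMA5 was higher. ITGA6 stood at 10.05, 10.04 and 10.12 against a T4 mean of 12.15, while ITGB1 and ITGB4 were within 0.3 of theirs. Of 14 matrix remodelling genes 6 were lower (42.9%): FN1, THBS1, SERPINE2, PLAU, PLAT and LOXL2. Fibronectin, FN1, stood at 7.10, 7.08 and 7.20 against 11.56, 10.56 and 11.00, and of its 5 other probe sets 3 differed from T4 by -3.71 to -3.99 and the others by -0.54 and 0.10. Of 18 NF-kappaB genes 3 were lower, the chemokines CXCL8 and CCL20 and the prostaglandin synthase PTGS2, which stood at 6.71, 6.76 and 6.91 against 10.42, 9.92 and 9.63. Among cholesterol synthesis genes FDPS and CYP51A1 were lower.

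The higher genes named here had wide gaps to T4. Counts of higher genes by list were small: 1 of 12 keratinocyte differentiation genes (8.33%) and 0 of 14 basal and luminal markers, against 0.812% of all genes. The largest count on any list was 2 of 17 TGF-beta response genes (11.8%). PPL, periplakin of desmosomes and the cornified envelope, stood at 11.54, 11.48 and 11.47 against 7.88, 8.96 and 6.92. KRT16, a keratin of activated epithelium, stood at 11.98, 11.70 and 11.72 against 8.13, 8.92 and 8.05, and CRYAB, a small heat shock protein, at 9.83, 10.17 and 9.96 against 7.24, 7.60 and 7.04. GABRE, a GABA receptor subunit, stood at 10.34, 10.38 and 10.44 against 6.99, 7.29 and 7.25, and the growth factor receptor FGFR3 at 9.90, 9.85 and 9.88 against 7.26, 7.13 and 7.43, with 0.30 on its dim second probe set. IGFBP5 was counted at 9.12 to 9.71 against 6.73 to 7.14, yet its 4 other probe sets differed from T4 by 0.10 to 0.35. Other agents also passed the same distance on the deposited values, without the S1 condition, in many of these genes: TNF protease inhibitor-2 lay at least 1 beyond every T4 sample in 43 of the 74 higher and 87 of the 114 lower genes, AIIB2 in 32 and 78, and dominant-negative Rap1 in 26 and 59. Their median differences from the T4 mean over the 74 higher genes were 1.43, 1.19 and 0.96, against 1.71 to 1.87 for the 3 agents, which the rule had selected for distance.

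Few genes separated blockade of EGFR or MEK from the other agents of the table. In 6 genes all 3 agents lay at least 1 log2 unit beyond TNF protease inhibitor-2, dominant-negative Rap1 and AIIB2: 2 above (0.022%) and 4 below (0.0439%), 0.0659% in all. CXCL14, a chemokine of normal epithelium, stood at 8.85, 9.34 and 9.54 with PD98059, tyrphostin AG 1478 and mAb225 against 7.48, 6.68 and 7.46 with the others, and S1 itself was split at 9.78, 9.77 and 6.67. LTBP2, a latent TGF-beta binding protein of microfibrils, stood at 10.37, 10.37 and 10.48 against 9.32, 9.03 and 9.08. FGFBP1 was below the others, which stood at 9.42, 9.54 and 10.12. The calcium-binding alarmin S100A8 stood at 8.94, 8.37 and 8.40 against 10.08, 11.87 and 12.67, with a gap of -0.14 on its dim second probe set, and the aldo-keto reductase AKR1C2 at 9.71, 9.35 and 9.48 against 10.80, 10.90 and 11.31. AKR1C2 shares nearly identical sequence with AKR1C1, so its probe sets cannot be assigned with certainty. YWHAZ, a 14-3-3 protein, was the last, with a gap of -1.01 on the probe set used, while its 4 others gave 0.00 to -0.14. With TNF protease inhibitor-2 left out the count was 20 and with AIIB2 left out 13, so it turns on those samples. At 0.5 log2 unit 25 genes lay above (0.274%) and 27 below (0.296%), 0.571% in all. By any distance all 3 agents were below the others in 5 of 13 NRF2 targets (38.5%), 8 of 23 interferon genes (34.8%) and 6 of 19 glycolysis genes (31.6%), against 12.6% of all genes. They were above the others in 4 of 17 TGF-beta response genes (23.5%), 4 of 18 NF-kappaB targets and cytokines (22.2%), 3 of 14 basal and luminal markers (21.4%) and 4 of 20 genes of the basement membrane and its receptors, again against 12.6%. The 5 NRF2 targets include AKR1C1, AKR1C2 and AKR1C3, at gaps of -0.73, -1.09 and -0.57, and HMOX1 at -0.02. AKR1C1 and AKR1C2 may not be separate readings, so the NRF2 share may count the same signal more than once.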

How the data were processed

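The authors deposited log2 values (so judged from their range), which were used as given. Trizol extraction and the standard Affymetrix labelling are stated per the labels' protocols, and the software the authors used for summarisation, background and normalization is not given in the sources used here. Joint normalization of the tables is not stated. All 15 columns were mapped to samples by name. Of 22215 probe sets, 19707 had 1 gene, 614 several and 1706 none in the platform annotations, and 188 differed between the annotations of the array types. Symbols were updated through RefSeq for 19689. The probe set with the highest mean stood for each of 12149 genes, the 25% dimmest were left out, and 9111 were compared.

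The distance of PD98059 was taken to the nearer EGFR blocker, with 1 log2 unit counted. A distance of 0.5 was added after seeing the data. The members, the 25 gene lists and the rule for named genes were chosen with earlier results of these data known. That rule took the 12 widest distances of PD98059 in each direction, 8 between the EGFR blockers, 10 shared against T4, 6 against the other agents, up to 4 and 2 of each list, and a set list of pathway genes. Other members are named where they make up a count, and TXNIP, EPOR and CALML3 were taken up on their further probe sets after their values were seen. AREG is not analysed here. The counting rules were tested on simulated data. Python 3.11.15, pandas 2.3.3, numpy 2.4.6 and, for 1 alternative, limma 3.58.1 in R 4.3.3 were used.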

Additional observations from a re-analysis of the deposited data

How the results depend on the processing

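No paired analysis was possible because the results come from no test and each agent has 1 sample. The count of genes with PD98059 outside both EGFR blockers, 2, became 1 with the mean of all probe sets (CYP1A1 left), 1 with every gene of below-median mean dropped (CYP1B1 left), 0 at a distance of 1.5 and 35 at 0.5. Leaving out a blocker gave 2 to 5, the 5 being against tyrphostin AG 1478 alone, with GPNMB, SELENOP and RGS2 added. Tyrphostin AG 1478 against mAb225 went from 0 to 29 at 0.5. The shared distance from T4, 188 genes, became 75 at 1.5 and 896 through the S1 bridge alone, which rests on S1 sample 3. It was 156 to 254 under the other alternatives, 189 to 241 with a T4 or S1 sample left out, and shared 147 genes with the main count after removal of a table term. The 3 agents against the others of their table, 6 genes, became 10 with the probe set of largest interquartile range, 0 at 1.5, 52 at 0.5 and 9 to 20 with an agent left out. The mean of all probe sets leaves no second probe set to compare, so that alternative was not run for it. None of these counts has a depth, and values near the arrays' lower quartile may be background.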
